A study of Mus musculus with 8 samples.

Results

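The *Scara5*+ fibroblasts with low *Wt1* of the adult mouse liver are the cells that the authors' community clustering placed in mesenchymal cluster #11 (m11c). They are 53 of the 1337 mesenchymal cells and of the 3491 cells in the dataset, or 3.96% and 1.52%. Livers of male and female adult mice on a C57BL6 background were dissociated, and single cells were sorted into plates and sequenced by Smart-seq2, which copies whole mRNA molecules of each cell without molecular identifiers. Mesenchymal cells were enriched with heterozygous reporter alleles (*Pdgfrb*-GFP, *Pdgfra*-H2bGFP and *Acta2*-GFP) and with an antibody against PDGFRα, so cell numbers and the levels of the 3 sorting genes reflect the sort. The series lists male and female mesenchymal cells as separate samples, called pools here, and 48 m11c cells came from the male pool and 5 from the female pool. The mice that gave each cell are not named in the labels, no treatment was given to any group used here, and no cell name occurred more than once.

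The closest cells were the 60 cells of community cluster #12 (m12c), which share with m11c the multilevel cluster #9 and the authors' annotation as *Wt1* fibroblasts. The other fibroblasts were the multilevel clusters #1 (m1, 88 male and 93 female cells), #4 (m4, 89 and 9), #8 (m8, 156 male cells) and #10 (m10, 127 male cells). The authors annotated m4 as peribiliary fibroblasts and all but 1 of the cells of the other clusters as portal fibroblasts. The m11c cells came from plates liver_048s (34 cells), liver_440s (8), liver_Rb_573s (6) and liver_058s (5). The last plate holds all female cells of these clusters, so sex and plate cannot be told apart in them. Of the m8 cells 153 were on liver_Rb_573s, and of the m10 cells 105 were on liver_440s, so cluster and plate are largely tied for both. Of the 5 female m11c cells, 5 had *Xist* counts, against 0 of the 48 male cells.

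Fibroblasts make and remodel the extracellular matrix. In many organs those in the outer sheath of large vessels and at organ surfaces express *Pi16*, *Cd34*, *Mfap5* and elastic fibre proteins, and are called adventitial or universal fibroblasts. *Scara5* encodes a scavenger receptor that takes up ferritin, and *Wt1* encodes a zinc finger transcription factor known from the mesothelium, the cell layer on the surface of the liver. Secreted inhibitors of Wnt and BMP signalling, such as the SFRP proteins and gremlin, are made by fibroblasts in many tissues.

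The m11c cells had 64019 to 600355 counts (median 262455), and the median number of genes was 4181. The median count was 219894 in m12c and 114907 in m8, where the median number of genes was 2404.5. Levels are CPM, a count scaled to a total of 1000000, of the counts summed over all cells of a cluster in a pool, and these sums held from 2300670 counts (female m11c cells) to 35497547. The sums of the 6 clusters entered a single edgeR quasi-likelihood fit with 19487 genes. A call needed a log2 fold change (log2FC) of 1 or more and a Benjamini-Hochberg adjusted p under 0.05, and ± marks the standard error of a log2FC. The authors drew the clusters from these same transcriptomes, so a call says only that a difference exceeded the spread between pools.

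The 4 markers that go with the name of the cluster were all present. *Scara5* (chr14:65666403-65764826, GRCm38) reached 952 CPM in male and 734 CPM in female m11c cells. In m12c it was at 1084 and 588 CPM, and in the 4 other fibroblast clusters between 0.627 and 31.8 CPM. m11c and m12c overlapped, while all sums of the other clusters were lower. The log2FC was 7.84 ± 0.64 against the other clusters (adjusted p = 3.8e-05) and 0.02 ± 0.67 against m12c (adjusted p = 1.0). *Mfap5*, which encodes a microfibril protein (chr6:122505845-122529290), was at 360 and 363 CPM in m11c, at 182 and 211 CPM in m12c, and between 0.149 and 28.1 CPM elsewhere (8.31 ± 0.91, adjusted p = 0.00045). *Cd34*, a surface sialomucin of progenitor and stromal cells, was at 1946 and 2162 CPM in m11c and at 471 to 1324 CPM in the 4 clusters (1.4 ± 0.21, adjusted p = 0.0038). It was at 1386 CPM over both pools of m12c. *Pdgfra*, the receptor used in the sort, was at 638 and 423 CPM in m11c and did not pass the test (0.11 ± 0.33, adjusted p = 1.0).

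Single cells of m11c spread widely in these markers. *Scara5* ranged from 0 to 5453 CPM per cell with a median of 334 CPM. At least 20 *Scara5* counts were found in 33 of 53 cells (62.3%, exact 95% interval 47.9 to 75.2%) and in 37 of 60 m12c cells. In the 4 other clusters 5 of 562 cells reached 20 counts (0.89%, 0.3 to 2.1%). With 20 counts as the limit, *Scara5* and *Mfap5* were both found in 21 m11c cells, *Scara5* alone in 12, *Mfap5* alone in 6 and neither in 14. *Cd34* reached 20 counts in 53 of 53 m11c cells, 50 of 60 m12c cells and 403 of 562 cells of the 4 other clusters. These intervals cover counting error only.

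**Figure D1:**
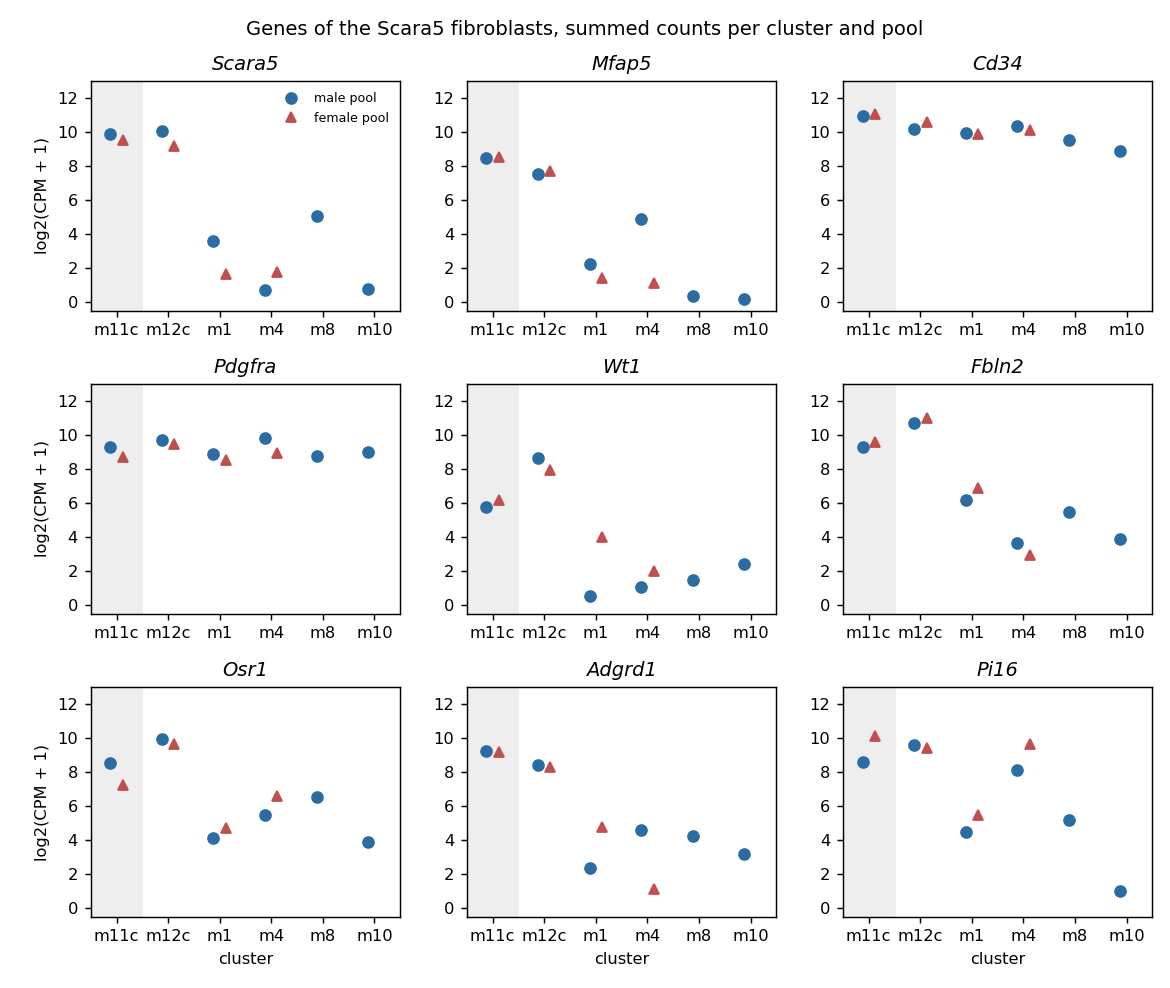
Level of 9 genes in the sums of each cluster, as log2(CPM + 1), with 1 point per cluster and pool. In m11c and m12c *Scara5* and *Mfap5* lie above all sums of m1, m4, m8 and m10, *Wt1* and *Fbln2* are lower in m11c than in m12c, and *Pdgfra* lies between 366 and 908 CPM in the 4 other clusters.

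*Wt1* (chr2:105126529-105173616) was low in m11c, as the name of the cluster says. Male m11c cells had 53.8 CPM and female ones 71.7 CPM, against 398 and 248 CPM in m12c. The levels of both pools lay below m12c, but the difference did not pass the test (log2FC −2.36 ± 1.15, adjusted p = 0.76). On the 3 plates with at least 3 cells of both clusters, *Wt1* was at 64 against 428, 71.7 against 248 and 0 against 379 CPM. It was thus lower in m11c on each of them. In m1, m4, m8 and m10 *Wt1* lay between 0.436 and 14.8 CPM, below both m11c sums (4.27 ± 0.89, adjusted p = 0.051). DESeq2 gave an adjusted p of 0.0027 for that difference, and the fit with the pool as a replicate block gave 0.14.

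The *Wt1* counts of m11c came from few cells. At least 20 counts were found in 7 of 53 m11c cells (13.2%, 5.5 to 25.3%), in 39 of 60 m12c cells (65.0%, 51.6 to 76.9%) and in 5 of 562 cells of the 4 other clusters (0.89%). A limit of 1 count gave 13 of 53 m11c cells (24.5%), 48 of 60 m12c cells (80.0%) and 147 of 562 others (26.2%). At that limit the share in m11c lay within the interval of the 4 clusters (22.6 to 30.0%). The 7 cells came from 3 plates, with 4 of 34 cells on liver_048s, 2 of 5 on liver_058s and 1 of 8 on liver_440s. On liver_Rb_573s 0 of 6 cells reached the limit. The authors' annotation of m11c as *Wt1* fibroblasts is a label of the cluster, and a minority of its cells reached 20 *Wt1* counts. The cells are called *Scara5* fibroblasts here. Of the 33 *Scara5* cells of m11c, 4 also reached 20 *Wt1* counts, against 24 of 37 in m12c.

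Other genes that the study ties to these fibroblasts were shared by m11c and m12c. *Fbln2* encodes the elastic fibre protein fibulin 2 and was at 638 and 765 CPM in m11c, 1700 and 2057 CPM in m12c and 6.87 to 119 CPM in the 4 clusters (log2FC against the 4 clusters 4.72 ± 0.32, adjusted p = 5.2e-06). *Osr1*, a transcription factor of embryonic mesenchyme, was at 371 and 150 CPM in m11c, 1005 and 816 CPM in m12c and 13.6 to 95 CPM elsewhere (2.87 ± 0.43, adjusted p = 0.0046). Both lay lower in m11c than in m12c in each pool and on each of the 3 shared plates, with adjusted p values of 0.65 and 0.71. *Adgrd1*, an adhesion G protein-coupled receptor, was at 601 and 576 CPM in m11c and 344 and 318 CPM in m12c (5.52 ± 0.78 against the 4 clusters, adjusted p = 0.0029). It was higher in m11c than in m12c on 2 of 3 shared plates and did not pass that test (adjusted p = 0.96). Of the 5 genes of this list, which the study chose on these cells, edgeR called 4 higher against the 4 clusters (beside 0.375% of all genes) and 0 against m12c (beside 0.0513%), where 2 were lower at an unadjusted p under 0.05 and DESeq2 called 0.

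Against m12c, 10 of 19487 genes were called higher in m11c (0.0513% of all genes tested) and 0 lower (0.0%). The 10 genes lie at 8 loci. At an unadjusted p under 0.05 there were 610 higher and 641 lower genes, and DESeq2 called 312 higher and 320 lower. With the pool as a replicate block 4 genes were called higher, 3 of them among the 10. Sums of at least 10 cells, which drop the female sums of m11c (5 cells) and m4 (9 cells) and leave 2 residual degrees of freedom in place of 4, gave 0 higher and 1 lower. In sums per plate 8 were higher and 1 lower, and in those of male cells alone 5 and 0.

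The genes higher in m11c included a TGF-β family ligand and inhibitors of Wnt and BMP signalling. *Gdf10* encodes a secreted ligand related to the BMPs (chr14:33923587-33937983). It was at 1059 and 1601 CPM in the male and female m11c cells, against 154 and 64.1 CPM in m12c. Both m11c sums stood above both m12c sums (log2FC 3.60 ± 0.42, adjusted p = 0.0038, 0.028 with the block). On the plates shared with m12c it was at 951 against 174 CPM, 1601 against 64.1 CPM and 1121 against 137 CPM. *Gdf10* was thus higher on each shared plate, and the m11c cells of liver_440s had 1537 CPM. With at least 10 cells per sum the adjusted p was 0.28, in sums per plate of male cells alone it was 0.025, and under all alternatives with a test but the first it ran from 8.5e-24 to 0.028.

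The shares of *Gdf10* and *Wt1* cells differed between the clusters. Within each cluster most cells with the rarer gene also had the other, as did most cells of the cluster. At least 20 *Gdf10* counts were found in 39 of 53 m11c cells (73.6%, 59.7 to 84.7%) and in 8 of 60 m12c cells (13.3%, 5.9 to 24.6%). In m11c 33 cells had *Gdf10* alone, 6 had both genes, 1 had *Wt1* alone and 13 had neither. In m12c 2 cells had *Gdf10* alone, 6 had both, 33 had *Wt1* alone and 19 had neither. The share of *Gdf10* cells was 81.7% (459 of 562) in the 4 other clusters, where its sums lay between 1047 and 2575 CPM. m11c did not differ from them beyond the threshold (log2FC −0.43 ± 0.32, adjusted p = 0.84).

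**Figure D2:**
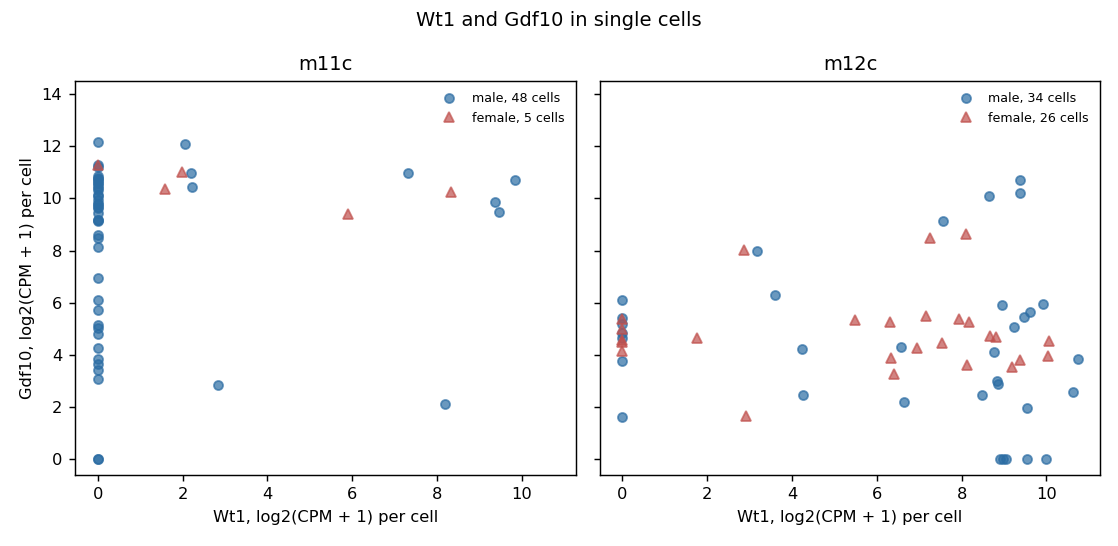
*Gdf10* (vertical axis) against *Wt1* (horizontal axis) in single cells, both as log2(CPM + 1), with 1 point per cell of m11c and m12c. Most of the 53 m11c cells lie along the *Gdf10* axis with no or little *Wt1*. Of the 60 m12c cells 48 have *Wt1* counts and 55 have *Gdf10* counts, with a *Gdf10* median of 22.6 CPM. In each cluster 6 cells are at 20 or more counts of both.

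*Sfrp1* and *Sfrp2*, related secreted inhibitors of Wnt ligands, lay on opposite sides. *Sfrp1* was at 872 and 1208 CPM in m11c and at 67.4 and 172 CPM in m12c (log2FC 3.17 ± 0.40, adjusted p = 0.0076, 0.021 with the block). It lay within the range of the 4 other clusters (594 to 1600 CPM). Without plate liver_048s the adjusted p was 0.098. *Sfrp2*, chosen after its values were seen, was at 0.642 and 8.26 CPM in m11c and at 793 and 1540 CPM in m12c (log2FC −8.16 ± 1.46, adjusted p = 0.085, DESeq2 1.8e-05). At least 1 *Sfrp2* count was found in 7 of 53 m11c cells (13.2%) and 43 of 60 m12c cells (71.7%). No m11c cell of 53 reached 20 counts, which allows a share of up to 5.66% (6.7% by the exact interval), against 31 of 60 m12c cells (51.7%, 38.4 to 64.8%). In m12c *Sfrp1* and *Sfrp2* were both at 20 counts in 7 cells, *Sfrp1* alone in 8 and *Sfrp2* alone in 24. In m11c *Sfrp1* was alone in 39 cells. Of 27 Wnt pathway genes tested, *Sfrp1* was called against m12c (beside 0.0513% of all genes), with a median log2FC of −0.11 beside 0.0 over all genes. Against the 4 clusters edgeR called 0 (median 0.77 beside −0.18), with 8 higher and 5 lower at an unadjusted p under 0.05, and DESeq2 called 4 higher and 3 lower.

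Some BMP inhibitors also differed in level among the fibroblast clusters, with calls that depended on the comparison and the fit. *Chrdl1*, which encodes the BMP antagonist chordin-like 1, was at 123 and 168 CPM in m11c and 0.634 and 1.58 CPM in m12c (log2FC 7.06 ± 1.17, adjusted p = 0.046, 0.088 with the block). Its level was uneven among plates, with 160 and 168 CPM on liver_048s and liver_058s and 1.46 and 1.24 CPM on liver_440s and liver_Rb_573s, and 9 of 53 cells reached 20 counts. *Grem1*, which encodes gremlin 1, was at 132 and 77.8 CPM in m11c, 0 and 0.113 CPM in m12c and at most 4.74 CPM in the 4 clusters. It was called against the 4 clusters (8.04 ± 1.47, adjusted p = 0.022, 0.084 with the block) but not against m12c (adjusted p = 0.26, where DESeq2 gave 5.3e-06). Its counts also came from few cells, as 9 of 53 (17%, 8.1 to 29.8%) reached 20 counts.

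*Nbl1*, which encodes the BMP antagonist DAN, was at 526 and 338 CPM in m11c, 1772 and 1764 CPM in m12c and 53.4 to 854 CPM in the 4 clusters. It was called higher than the mean of the 4 clusters (1.49 ± 0.27, adjusted p = 0.02) but lay below m4 (854 and 754 CPM) in both pools and on 4 of 4 shared plates, and the difference from m12c was −2.01 ± 0.35 (adjusted p = 0.084). It lay below m12c on 3 of 3 shared plates. Of 26 TGF-β and BMP genes tested, 2 were called higher against m12c (*Gdf10* and *Chrdl1*) and 2 against the 4 clusters (*Grem1* and *Nbl1*), beside 0.0513% and 0.375% of all genes. The medians of the list were −0.12 and −0.30, beside 0.0 and −0.18 over all genes.

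The other genes called against m12c were a surface antigen, a channel subunit, an enzyme, a receptor and a single overlapping locus. *Ly6a*, the stem cell antigen SCA-1, was at 336 and 692 CPM in m11c and 29.7 and 26.7 CPM in m12c (log2FC 4.21 ± 0.46, adjusted p = 0.0036, 0.023 with the block, 0.22 without the plate of the female cells). *Abcc9*, the sulfonylurea receptor subunit of ATP-sensitive potassium channels, was at 425 and 745 CPM against 88.5 and 62.2 CPM (2.97 ± 0.47, adjusted p = 0.03, 0.078 with the block). In the 4 other clusters *Ly6a* ran from 399 to 928 CPM, with the male m11c sum below that range, and *Abcc9* from 313 to 1377 CPM, with both m11c sums inside it. *Gfpt2*, an enzyme that makes hexosamines for glycan synthesis, was at 633 and 898 CPM in m11c and 90.2 and 52.6 CPM in m12c (3.43 ± 0.53, adjusted p = 0.029, 0.057 with the block). It was also above every sum of the 4 clusters, which ran from 128 to 237 CPM (2.36 ± 0.38, adjusted p = 0.0078).

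*C1qtnf5* and *Mfrp* overlap on the plus strand of chr9 (44107245-44109187 and 44101729-44109187), and *Gm20444* lies within them on the other strand, so their counts cannot be told apart. *C1qtnf5*, a secreted protein with a C1q domain, was at 118 and 200 CPM in m11c and 1.59 and 7.11 CPM in m12c (5.24 ± 0.72, adjusted p = 0.011, 0.057 with the block). It was at 161 to 552 CPM in the 4 clusters. *Epha3*, an ephrin receptor, was at 84.5 and 64.3 CPM in m11c and 2.38 and 1.01 CPM in m12c (5.47 ± 0.83, adjusted p = 0.027, and above the threshold at 0.05 with the block). *Gdf10*, *Sfrp1*, *Ly6a*, *Abcc9*, *Gfpt2*, *C1qtnf5*, *Chrdl1* and *Epha3* were each higher in m11c than in m12c on 3 of 3 shared plates, although *Chrdl1* was near 0 in both clusters on liver_Rb_573s (1.24 and 0.992 CPM, 1 cell with a count in each). Of these 8 genes, edgeR called only *Gfpt2* also against the 4 clusters, where the adjusted p values of the others ran from 0.33 to 1.0. DESeq2 also called *Chrdl1* higher there (log2FC 2.14, adjusted p = 0.0086).

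**Figure D3:**
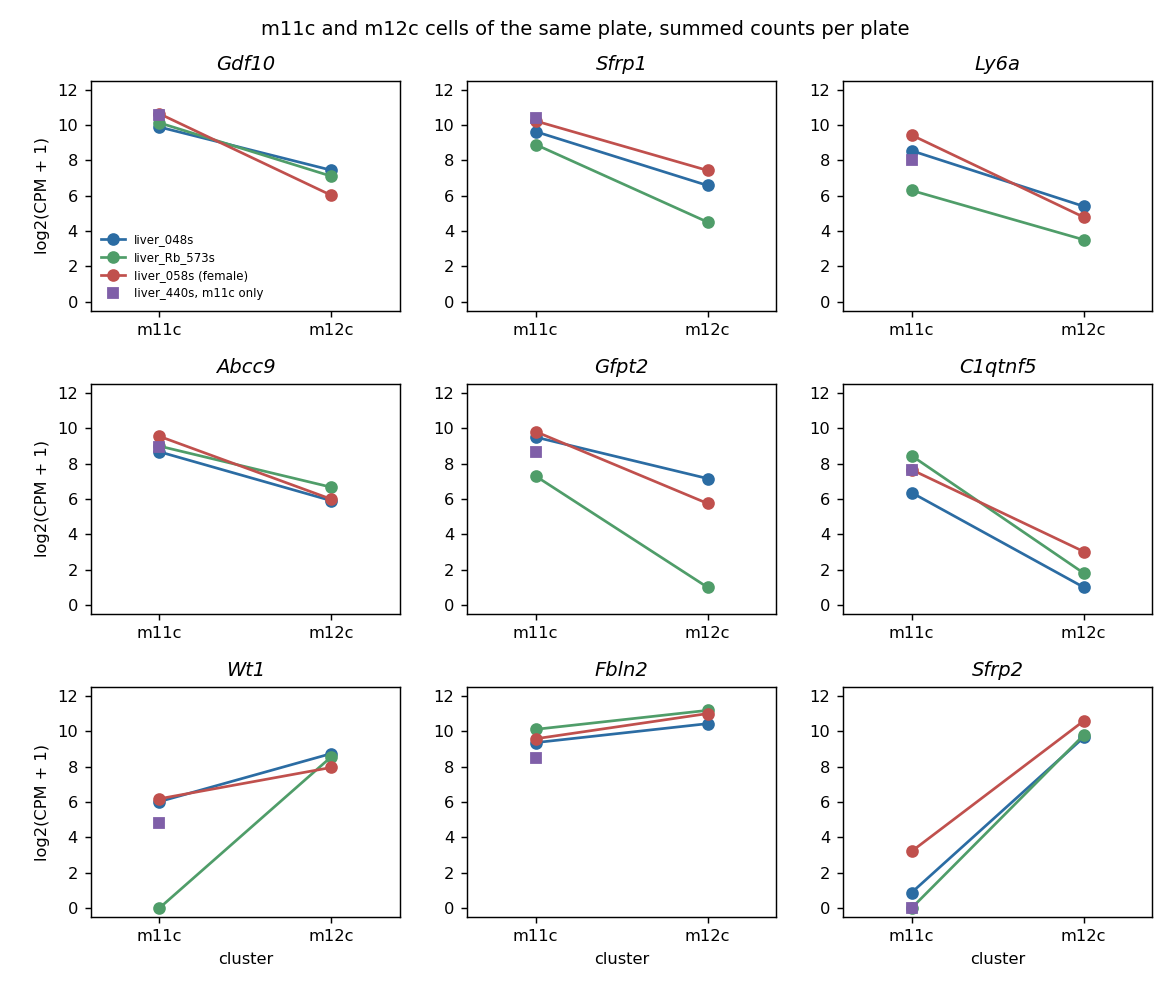
Level of 9 genes per plate as log2(CPM + 1), with m11c and m12c side by side on the 3 plates that hold both and m11c alone on liver_440s. *Gdf10*, *Sfrp1*, *Ly6a*, *Abcc9*, *Gfpt2* and *C1qtnf5* are higher in m11c on 3 of 3 shared plates, and *Wt1*, *Fbln2* and *Sfrp2* are lower on 3 of 3.

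Against the mean of m1, m4, m8 and m10, 73 genes were called higher in m11c (0.375% of the 19487 tested) at 63 loci and 18 lower (0.0924%). The genes called higher included 11 of 20 adventitial fibroblast genes and 4 of 22 elastic fibre genes. In sums per plate 6 were higher and 13 lower, and of the 41 called genes named in the text 10 were still called: *Scara5*, *Ackr3*, *Adgrd1*, *Lamc3*, *Cxcl12*, *Hsd11b1*, *Tgm2*, *Igfbp3*, *Gm4956* and *Flt1*. Of these, *Igfbp3* and *Flt1* were not called with the pool as a replicate block (adjusted p = 0.074 and 0.068). With at least 10 cells per sum, which drops the female sums of m11c and m4, 44 genes were higher and 3 lower. Against m1 and m4 only, which hold cells of both pools, 34 were higher and 10 lower. The median log2FC over all genes was −0.18.

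Of 20 adventitial fibroblast genes, 11 were called higher, 0 lower and 9 did not pass the test, with a median log2FC of 2.48. *Mfap5* and *Cd34* are among the 11. *Pi16*, a peptidase inhibitor that marks these fibroblasts in other organs, was at 384 and 1122 CPM in m11c, 789 and 700 CPM in m12c, 283 and 813 CPM in m4 and 1.04 to 43.2 CPM in m1, m8 and m10 (4.75 ± 0.47, adjusted p = 0.00024). It therefore overlapped between m11c and m4. *Cd55*, an inhibitor of complement on the cell surface, was at 286 and 324 CPM in m11c and 0.149 to 68.7 CPM in the 4 clusters (5.14 ± 0.67, adjusted p = 0.0013). *Efemp1*, the elastic fibre protein fibulin 3, was at 1193 and 1285 CPM against 28.4 to 396 CPM (3.28 ± 0.28, adjusted p = 5.2e-05). In m12c *Cd55* was at 177 CPM and *Efemp1* at 949 CPM over both pools, against 292 and 1208 CPM in m11c. *Ackr3*, a scavenging receptor for CXCL12, was at 1038 and 1469 CPM in m11c and 93.5 to 700 CPM in the 4 clusters (2.28 ± 0.28, adjusted p = 0.0012), and at 289 and 366 CPM in m12c (adjusted p = 0.11).

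The other called members were *Igfbp6*, *Pcolce2*, *Clec3b*, *Ly6c1* and *Gfpt2*. *Igfbp6*, which binds insulin-like growth factors, was at 900 and 770 CPM in m11c and 1866 and 1730 CPM in m12c (against the 4 clusters 2.30 ± 0.35, adjusted p = 0.0049). *Pcolce2*, an enhancer of procollagen processing, was at 404 and 825 CPM (2.56 ± 0.45, adjusted p = 0.018). On the plates shared with m12c it was at 461 against 286, 825 against 471 and 114 against 211 CPM. *Clec3b* and *Ly6c1* had adjusted p values of 0.042 and 0.021, which became 0.087 and 0.072 with the block. *Dpp4*, another marker of these fibroblasts, was at 6.58 and 10.4 CPM in m11c and 14.1 and 79.5 CPM in m12c and did not pass the edgeR test in either comparison (adjusted p = 0.31 against the 4 clusters, where DESeq2 gave 0.0009, and 0.83 against m12c). Against m12c, *Ly6a* and *Gfpt2* were the called members (beside 0.0513% of all genes), and the median of the list was 0.70 beside 0.0 over all genes.

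**Figure D4:**
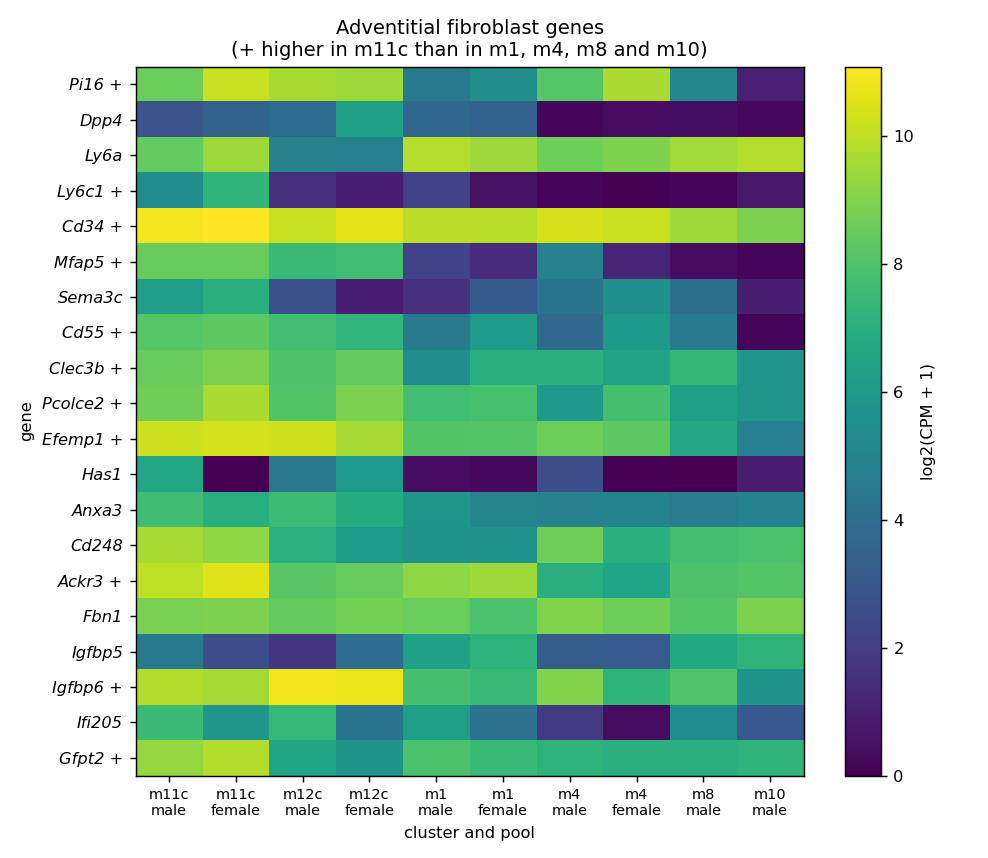
Heat map of log2(CPM + 1) for the 20 adventitial fibroblast genes in the 10 sums of cluster and pool, with a plus sign at the 11 genes called higher in m11c than in m1, m4, m8 and m10. Most of these genes are bright in both m11c and m12c, while *Ly6a* and *Gfpt2* are brighter in m11c.

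Matrix genes moved unevenly. Of 22 elastic fibre and microfibril genes 4 were called higher against the 4 clusters (*Mfap5*, *Fbln2*, *Efemp1* and *Emilin2*) and 0 lower, with a median of 0.21. *Emilin2* was at 347 and 350 CPM in m11c, 113 and 77.2 CPM in m12c and 0.597 to 36.9 CPM in the 4 clusters (4.80 ± 0.82, adjusted p = 0.013, 0.074 with the block). Of 28 collagen genes edgeR called 0 in either comparison, with medians of −0.62 against m12c and −0.64 against the 4 clusters. At an unadjusted p under 0.05, 1 was higher and 5 lower against m12c and 7 lower against the 4 clusters, and DESeq2 called 1 higher and 3 lower in these comparisons. *Fn1*, which encodes fibronectin, was at 809 and 1896 CPM in m11c, 229 and 461 CPM in m12c and 67.6 to 261 CPM in the 4 clusters (3.40 ± 0.45, adjusted p = 0.0013). *Ugdh*, which makes the UDP-glucuronate used for hyaluronan, was the called gene of 13 in that list (270 and 514 CPM, 2.61 ± 0.43, adjusted p = 0.011). *Mmp3*, a matrix metalloproteinase, and *Serpinf1*, the secreted serpin PEDF, were the called higher members of 29 proteases and inhibitors, at 685 and 272 CPM (adjusted p = 0.039, 0.068 with the block) and 1802 and 1835 CPM (adjusted p = 0.043, 0.13 by DESeq2 and 0.12 in sums per plate). In m12c *Ugdh*, *Mmp3* and *Serpinf1* were at 231, 273 and 2274 CPM over both pools, against 308, 620.5 and 1807 CPM in m11c.

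Further genes with large differences from the 4 clusters encode surface and secreted proteins and an enzyme locus. *Scara3*, a relative of *Scara5*, was at 229 and 127 CPM in m11c and 60.3 and 56.3 CPM in m12c (against the 4 clusters 5.46 ± 0.85, adjusted p = 0.0064). *Fndc1*, a protein with fibronectin type III domains, was at 682 and 912 CPM (4.56 ± 0.59, adjusted p = 0.0013). *Spon2*, a secreted matrix protein, was at 764 and 1415 CPM (4.12 ± 0.60, adjusted p = 0.0036). Over both pools m12c had 494 CPM of *Fndc1* and 644 CPM of *Spon2*, against 718 and 865 CPM in m11c, and neither gene was called against m12c. *Ugt1a8* is part of the *Ugt1a* locus of UDP-glucuronosyltransferases on chr1, whose genes share their last exons, so that 9 *Ugt1a* genes and *Gm20528* were called together on the same reads. It was at 312 and 336 CPM in m11c, 145 and 120 CPM in m12c and 1.67 to 91.4 CPM in the 4 clusters (3.93 ± 0.50, adjusted p = 0.0013).

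Of 37 mesenchymal transcription factors, *Osr1* and *Ebf2* were called higher against the 4 clusters (beside 0.375% of all genes, as for the other lists in this comparison). Against m12c edgeR called 0, with 4 higher and 2 lower at an unadjusted p under 0.05, and DESeq2 called 1. *Ebf2*, a regulator of mesenchymal progenitors, was at 85.6 and 86.5 CPM in m11c, 290 and 135 CPM in m12c and at most 2.29 CPM in the 4 clusters (7.59 ± 0.85, adjusted p = 0.00051). Among 21 complement genes, *C3*, the central complement protein, was at 4843 and 3769 CPM in m11c and 1232 to 3196 CPM in the 4 clusters (1.20 ± 0.19, adjusted p = 0.0087), and *C3* and *Cd55* were the called members. The *C3* call did not hold by DESeq2 (adjusted p = 0.091) or in sums per plate (0.12). Over both pools *C3* was at 4675 CPM in m11c and 4636 CPM in m12c. *Scara5* was the called gene of 24 for iron handling. *Fth1* and *Ftl1*, the ferritin subunits that the SCARA5 receptor binds, were at 1785 and 1378 CPM and at 680 and 652 CPM in m11c, with log2FC against the 4 clusters of −0.15 ± 0.22 and −0.26 ± 0.25 (adjusted p = 1.0 and 0.92).

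The 18 genes lower in m11c than in the 4 clusters included *Lamc3*, the called gene of 19 basement membrane genes (median 0.06), *Cxcl12*, that of 24 chemokine genes (median −0.10), and *Des*, that of 6 mural cell genes (median −1.08). *Lamc3*, which encodes the laminin γ3 chain, was at 5.86 and 0.869 CPM in m11c and 303 to 745 CPM in the 4 clusters (log2FC −7.20 ± 0.75, adjusted p = 0.00035). *Cxcl12*, a chemokine that retains blood cells in tissue, was at 1244 and 1054 CPM against 2962 to 4698 CPM (−1.67 ± 0.19, adjusted p = 0.00051). *Hsd11b1*, which regenerates active glucocorticoid, was at 215 and 183 CPM against 1144 to 1952 CPM (−2.83 ± 0.30, adjusted p = 0.00035). The groups did not overlap for these 3 genes, and m12c was also low, at 2.85 and 5.87 CPM for *Lamc3*, 1052 and 1239 CPM for *Cxcl12* and 83.8 and 101 CPM for *Hsd11b1*.

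*Adamtsl2*, a matrix protein that binds microfibrils, was at 56.5 and 43.5 CPM in m11c and 84.5 to 1213 CPM in the 4 clusters, with the lowest sums in m4 (−3.63 ± 0.48, adjusted p = 0.0013). *Tgm2*, a transglutaminase that crosslinks proteins, was at 458 and 673 CPM against 1170 to 4279 CPM (−2.00 ± 0.34, adjusted p = 0.012). *Des*, the muscle intermediate filament desmin, was at 148 and 161 CPM against 562 to 928 CPM (−2.13 ± 0.35, adjusted p = 0.011). All 3 genes were also lower in m12c than in every sum of the 4 clusters. *Septin4*, a cytoskeletal GTPase, was at 134 and 137 CPM against 377 to 708 CPM (−1.86 ± 0.38, adjusted p = 0.043). *Igfbp3* (636 and 524 CPM, −1.92 ± 0.37, adjusted p = 0.029, 0.074 with the block) and *Septin9* (27.0 and 4.35 CPM, −3.72 ± 0.77, adjusted p = 0.05, 0.11 with the block) passed the test without the block. *Gm4956*, annotated as a transcribed unprocessed pseudogene whose counts may be shared with a similar gene, was at 0.161 and 0.869 CPM against 84.1 to 239 CPM (−8.50 ± 1.12, adjusted p = 0.0013). *Prelp*, a leucine-rich proteoglycan that anchors basement membranes, was at 1931 and 883 CPM against 2447 to 4559 CPM (−1.43 ± 0.27, adjusted p = 0.026). It was not called by DESeq2, in sums per plate or against m1 and m4 only.

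**Figure D5:**
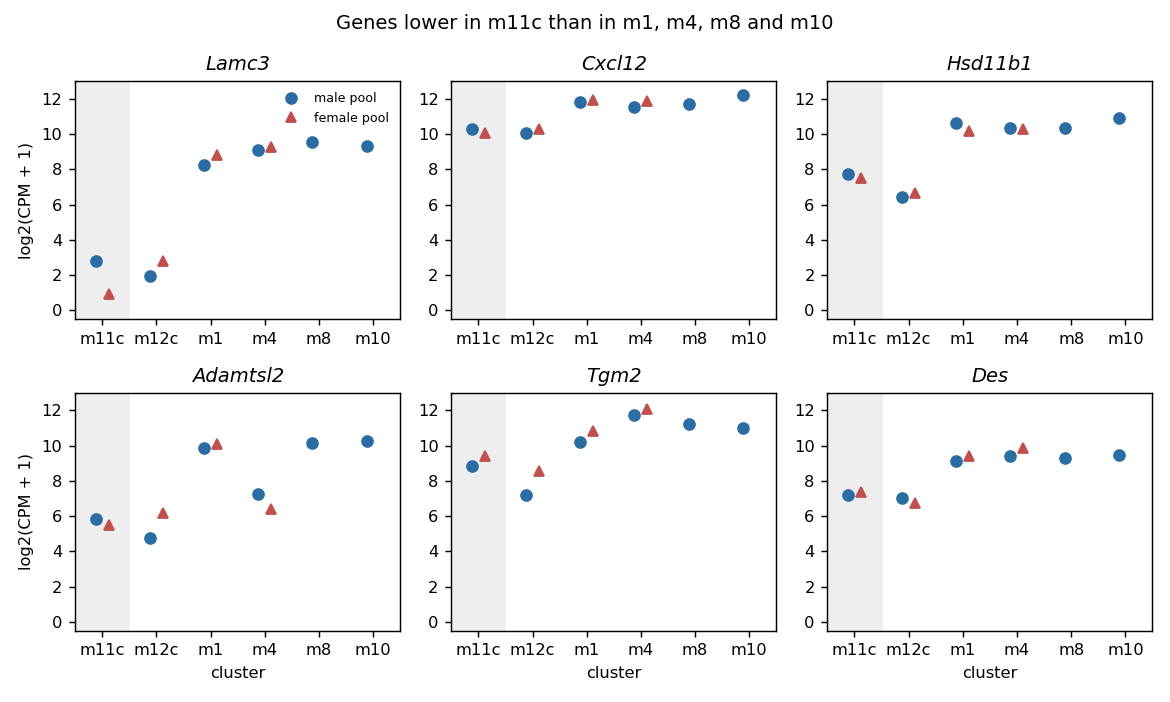
Level of *Lamc3*, *Cxcl12*, *Hsd11b1*, *Adamtsl2*, *Tgm2* and *Des* as log2(CPM + 1) in the sums of cluster and pool. The m11c points lie below all points of m1, m4, m8 and m10 in each panel, for *Des* at 148 and 161 CPM against 562 to 928 CPM.

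Genes that the study uses for peribiliary and portal fibroblasts had no common direction in m11c. *Thy1*, a surface glycoprotein of fibroblasts and neurons, was at 6.18 and 3.04 CPM in m11c and at 243 and 199 CPM in m4 (against the 4 clusters −3.48 ± 1.15, adjusted p = 0.31). *Wif1*, a secreted Wnt inhibitor, was at 0.321 and 0 CPM in m11c and at 362 and 924 CPM in m4. *Ngfr*, a neurotrophin receptor, was at 0.482 and 6.95 CPM against 118 to 434 CPM in the 4 clusters (−5.86 ± 1.37, adjusted p = 0.11), and passed the test with the block (−7.21, adjusted p = 0.021). *Ncam1*, a cell adhesion molecule, was instead at 121 and 11.3 CPM in m11c, 96.8 and 141 CPM in m1 and 0.784 and 2.69 CPM in m4. *Nkd2*, an inhibitor of Wnt signalling, was at 62.4 and 45.6 CPM in m11c, 293 and 340 CPM in m4 and 21.1 to 61.5 CPM in m1, m8 and m10. Of the 9 genes of this list, which the study chose on these cells, edgeR called 0 in either comparison. DESeq2 called 3 lower against the 4 clusters (*Thy1*, adjusted p = 0.0056, *Wif1*, 0.026, and *Ngfr*, 0.00053) and *Nkd2* lower against m12c (0.017). At an unadjusted p under 0.05 edgeR had 3 of them against the 4 clusters, all lower, and 2 higher and 1 lower against m12c. The medians were 0.81 against m12c and −0.49 against the 4 clusters, beside 0.0 and −0.18 over all genes.

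Defining markers of mesothelial cells were near 0 in m11c. The sums of the stellate, mural and hepatocyte lists were not 0 but lay far below those of these cell types. The mesothelial genes *Msln* and *Gpm6a* were at 0.0803 and 1.74 CPM and at 0.482 and 0.435 CPM. The 8 mesothelial markers summed to 9.95 and 3.04 CPM, against 13480 CPM in the 6 mesothelial cells of cluster m16c. *Reln*, a marker of hepatic stellate cells, was at 0.722 and 4.78 CPM, and *Ptprc*, the leukocyte gene for CD45, was at 0 in both pools. The 6 endothelial markers summed to 14.9 and 67.8 CPM, the 6 immune markers to 33.1 and 9.13 CPM, mostly from the Kupffer cell gene *Clec4f* in the male pool (32.8 and 3.48 CPM, with counts in 4 of 53 cells, against 4235 CPM in immune cells), and the 6 hepatocyte markers to 508 and 273 CPM against 15210 CPM in hepatocytes. The hepatocyte sum was 303 CPM in endothelial cells, 456 CPM in immune cells and 647 to 1328 CPM in the 4 clusters. Stellate cell markers (8 genes) summed to 1727 and 1859 CPM, against 18020 CPM in m7c, and mural cell markers (6 genes, with *Des*) to 514 and 999 CPM, against 19390 CPM in the arterial smooth muscle cells of m2c. The stellate sum came mostly from *Ecm1*, at 1644 CPM over both pools of m11c and 1290 to 2583 CPM in the 4 clusters. *Lrat*, *Colec11* and *Hgf* were at 43.7, 37.7 and 14 CPM in m11c. Over both pools *Wt1* was at 56.6 CPM in m11c, 310 CPM in m12c, 266 CPM in m16c, 416 CPM in the capsular stellate cells of cluster m3c and 20.3 CPM in the stellate cells of m7c.

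Immediate early genes, which cell isolation can induce, were higher in the male m11c cells than in the other fibroblast sums. The 30 genes of the list summed to 26110 CPM (male) and 15020 CPM (female) in m11c, to 17650 and 13740 CPM in m12c and to between 10190 and 17990 CPM in the 4 clusters. *Atf3*, a stress-responsive transcription factor, was at 980 and 198 CPM in m11c and 11.7 to 138 CPM in the 4 clusters, and was the called gene of the list (3.75 ± 0.56, adjusted p = 0.004). Its level was uneven among plates, at 1243 CPM on liver_048s and 198, 139 and 7.43 CPM on the others, and in sums per plate without liver_048s the log2FC was 1.0 (adjusted p = 0.89). The medians of the list were 0.34 against m12c and 0.75 against the 4 clusters, beside 0.0 and −0.18 over all genes. At an unadjusted p under 0.05, 12 of the 30 genes were higher and 0 lower against the 4 clusters, beside 1167 higher of 19487 genes. Against m12c 2 were higher and 0 lower. DESeq2 called 2 higher against the 4 clusters and 0 against m12c. The part of the immediate early genes in the other differences was not tested.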

How the data were processed

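The authors sorted single cells into 384-well plates, made Smart-seq2 libraries, sequenced single reads of 50 bases and removed low-quality, doublet and contaminated cells. No doublet caller was run here. The deposited values are raw counts per gene and cell, with 46517 genes, 92 ERCC spike-ins and no removal of duplicate reads stated. The submitters' processing notes name bcl2fastq, Bowtie, Bowtie2, featureCounts, Subread, Seurat, GRCm38 and mm10, without their roles, and strand use in counting is not given in the sources used here, so overlapping genes are uncertain. Positions come from GENCODE vM21 (GRCm38). Cluster labels are the authors' pagoda2 communities.

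Counts without ERCC were summed per cluster and pool (at least 5 cells, 10 sums, 4 residual degrees of freedom, TMM, filterByExpr) and tested with edgeR 4.0.16 in R 4.3.3, in place of the study's test over single cells. Alternatives used DESeq2 1.42.0, other filters, cell minimums, thinning to 50000 counts, sums per plate (at least 3 cells) and the pool as a block. Sums of the same pool come from the same sample of the series, so the pool pairs them by design; their deviations from cluster means correlated at 0.0623 to 0.124 over 19487 genes. Shares have exact Clopper-Pearson intervals at 95% (Python 3.11.15, numpy 2.4.6, scipy 1.17.1, pandas 2.3.3), and for a share of 0 an upper limit of 3 counts over the cells is given. CPM values rest on at least 2300670 counts per sum, and p values measure the spread between pools, which may be technical in part.

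The text names the study's genes for these fibroblasts, called members of the gene lists, and the 10 called genes per comparison and direction with the largest log2FC among those with counts in 50% of cells of the higher side and the same direction in both pools. Genes outside this rule (*Fn1*, *Nbl1* against m12c, *Sfrp2*, *Flt1*, *Dpp4*, *Cd248*, *Fth1* and *Ftl1*) were chosen after their values were seen. The cluster, the lists and the alternatives were chosen with earlier results of these data known. On simulated counts for 18654 genes with 100 genes changed per size, the comparison with m12c recovered 2% of 4-fold and 54% of 64-fold changes with 3 false calls, and that with the 4 clusters 9% and 56% with 9.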

Additional observations from a re-analysis of the deposited data

How the results depend on the processing

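The counts of genes called higher than in m12c (10), lower than in m12c (0), higher than in the 4 clusters (73) and lower than in the 4 clusters (18) depended on the processing, in that order. DESeq2 called 312, 320, 403 and 432 genes. Without a filter on low counts they were 69, 23, 295 and 94. With at least 10 cells per sum, which leaves out the female sums of m11c (5 cells) and m4 (9 cells), they were 0, 1, 44 and 3. Thinning each cell to 50000 counts gave 22, 8, 84 and 40. Sums per plate gave 8, 1, 6 and 13, and male cells alone 5, 0, 2 and 9. Against m1 and m4 only, 34 genes were higher and 10 lower. Fits with the plate as a term and without single plates were chosen after seeing the data. The plate term gave 10, 3, 9 and 8 calls. Leaving out each plate in turn gave 5 to 8, 0 to 2, 2 to 55 and 5 to 16. The counts of 55 and 16 came without liver_Rb_573s. That plate holds 153 of the 156 m8 cells, so this run left m8 out and compared m11c with m1, m4 and m10. The cause of the other changes was not tested.

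With the pool as a replicate block, which is the pairing of the design, 4, 0, 52 and 18 genes were called, and 3 of the 4, 47 of the 52 and 14 of the 18 were also called without the block. *Gdf10*, *Ly6a* and *Sfrp1* were the genes called against m12c under both. Leaving out either pool left no residual degrees of freedom, so only fold changes were computed. Without the male pool 17 of 74 named genes against m12c and 32 of 74 against the 4 clusters moved by more than their standard error, and without the female pool 21 and 23. For *Gdf10* against m12c the log2FC was 4.67 and 2.74.

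For genes that the text names, no fold change turned its direction under any alternative run in the comparison in which the gene was called. Fold changes that did not pass the test could change sign, as for *Scara5* against m12c and *Gdf10* against the 4 clusters. *Scara5* was called against the 4 clusters under every alternative with a test, but most other named genes depended on the sums. Of 41 named genes called against the 4 clusters, 33 were still called with the block, 37 by DESeq2, 19 with at least 10 cells per sum, 24 against m1 and m4 only, 10 in sums per plate, 13 with the plate term and 5 to 22 without single plates. The 22 came without liver_Rb_573s, where m8 dropped out of the comparison. Adjusted p values in sums per plate were 0.082 for *Mfap5*, 0.14 for *Cd34*, 0.23 for *Fbln2*, 0.39 for *Osr1*, 0.12 for *Pi16*, 0.19 for *Cd55*, 0.24 for *Scara3*, 0.14 for *Fndc1*, 0.062 for *Spon2*, 0.24 for *Adamtsl2*, 0.074 for *Des* and 0.25 for *Septin4*. Of the 10 genes called against m12c, 8 were still called in sums per plate, where *Chrdl1* and *Gfpt2* were not. The small female sum and the low depth of the plate liver_Rb_573s (median 114966 counts per m11c cell) are limits of these data, and changes of 4-fold were rarely recovered in simulated counts.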

Other observations

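Other gene lists gave few calls in m11c. Of 24 chemokine genes *Cxcl12* was called lower than in the 4 clusters, and 0 of 10 hedgehog, 17 retinoid, 18 prostanoid, 24 interferon-stimulated and 16 cell cycle genes were called in either comparison by edgeR, with medians against the 4 clusters of 0.13, −0.48, 0.17, 0.61 and −0.71 beside −0.18 over all genes. At an unadjusted p under 0.05 there were 4, 3, 4, 2 and 0 genes of these lists against the 4 clusters and 3, 2, 5, 3 and 2 against m12c, and DESeq2 called 2, 3, 1, 1 and 0 and 1, 0, 1, 1 and 0. Of 34 axon guidance genes *Epha3* was called against m12c (beside 0.0513% of all genes) and 0 against the 4 clusters, where the median was −0.99 beside −0.18. At an unadjusted p under 0.05, 4 were higher and 1 lower against m12c, and 4 higher and 5 lower against the 4 clusters. DESeq2 called 4 higher and 0 lower against m12c, and 2 higher and 4 lower against the 4 clusters. *Cd248*, which encodes the stromal sialomucin endosialin, was at 782 and 577 CPM in m11c, 135 and 68.4 CPM in m12c and 50.4 to 403 CPM in the 4 clusters, above all other sums. The adjusted p against m12c was 0.23 (0.014 by DESeq2), and against the 4 clusters it was 0.055 without and 0.027 with the block (0.017 by DESeq2). *Flt1*, a VEGF receptor that was picked after its values were seen, was at 4.17 and 0.435 CPM in m11c, 198 and 120 CPM in m12c and 9.86 to 162 CPM in the 4 clusters, below all other sums (log2FC against m12c −5.95 ± 1.07, adjusted p = 0.086, and 0.0049 in sums per plate). Against the 4 clusters its log2FC was −4.63 (adjusted p = 0.05 after rounding), and it was not called with the block (0.068) or against m1 and m4 only (0.14).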
